A study of Mus musculus with 6 samples.

Results

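The guanylate-binding proteins (GBPs) and the immunity-related GTPases (IRGs) are interferon-induced proteins that bind guanine nucleotides. They were examined here in regulatory T cells (Tregs) that had infiltrated lung tumors and either carried or lacked Ku70. Ku70 is encoded by Xrcc6 and is a subunit of the dimer that binds broken DNA ends. The 10 members were Gbp2 to Gbp9, Irgm1 and Igtp, found by matching their symbols to the 15319 gene symbols of the table of counts, and all 10 had counts in every library.

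RNA-Seq was done on total RNA of Tregs isolated from the tumors, in 3 libraries of each genotype. WT mice were Foxp3Yfp-Cre, and cKO mice were Xrcc6flox/floxFoxp3Yfp-Cre, so that the control group also carried the Cre and YFP allele and the 2 genotypes differed by the floxed Xrcc6 alleles. Cre was driven by Foxp3, so that the deletion was directed to Foxp3-expressing cells. Mice of 8 to 10 weeks received 1000000 LLC cells, a mouse lung carcinoma line, into the tail vein, and tumors were taken on day 21. The labels give each library a number only and do not say that the libraries came from separate mice, so the p-values below measure the spread between these libraries, which may be partly technical.

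GBPs are large GTPases that assemble on the membranes of intracellular pathogens and of the vacuoles that hold them, and several of them promote inflammasome activation. IRGs act at the same vacuoles, where the regulators Irgm1 and Igtp (also called Irgm3) bind host membranes and keep the effector IRGs in their inactive state. In the mouse the GBP genes lie in a cluster on chromosome 3 and another on chromosome 5, while most IRG genes lie on chromosome 11. Interferon-gamma induces both families through its receptor, the kinases JAK1 and JAK2 and transcription factors that include IRF1. Promoters of interferon-induced genes often hold gamma-activated sites or interferon-stimulated response elements, and IRF1 binds the latter.

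The members shared a nucleotide-binding loop, the P-loop, which contacts the phosphates of the bound nucleotide. The coding sequence around it is shown for 8 members because it separates the families and shows how alike the chromosome 5 genes are here. In this short stretch Gbp4 is the least alike of them, which does not hold across whole coding sequences. The sequences are from the GENCODE vM21 transcripts of GRCm38. Each line runs 5′ to 3′ on the coding strand, and the 8 codons of the loop are in capitals.
Gbp2: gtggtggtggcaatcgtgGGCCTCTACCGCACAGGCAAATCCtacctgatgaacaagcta
Gbp4: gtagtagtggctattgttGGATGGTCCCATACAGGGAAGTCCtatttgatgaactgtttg
Gbp5: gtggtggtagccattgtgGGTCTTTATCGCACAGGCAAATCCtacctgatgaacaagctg
Gbp6: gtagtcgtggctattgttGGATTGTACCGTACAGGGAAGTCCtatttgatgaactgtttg
Gbp8: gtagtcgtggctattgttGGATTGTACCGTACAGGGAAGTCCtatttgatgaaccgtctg
Gbp9: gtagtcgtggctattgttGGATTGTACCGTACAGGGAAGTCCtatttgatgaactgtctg
Irgm1: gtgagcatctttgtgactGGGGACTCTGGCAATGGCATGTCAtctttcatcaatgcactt
Igtp: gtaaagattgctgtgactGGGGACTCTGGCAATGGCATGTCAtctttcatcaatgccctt
The Gbp2 stretch lies at chr3:142623808-142623867 (plus strand, exon 2), that of Gbp5 at chr3:142500671-142500730 (plus strand, exon 2), that of Gbp4 at chr5:105136854-105136913 (minus strand, exon 2), that of Gbp6 at chr5:105290853-105290912 (minus strand, exon 2) and that of Gbp8 at chr5:105050880-105050939 (minus strand, exon 2). That of Gbp9 lies at chr5:105105680-105105739 (minus strand, exon 2), that of Irgm1 at chr11:48866743-48866802 (minus strand, exon 3) and that of Igtp at chr11:58206257-58206316 (plus strand, exon 3). The seventh codon of the loop encoded lysine in all 8 GBP members and methionine in Irgm1 and Igtp, the residue that defines the regulatory IRGs. Over the 60 bases shown, Gbp8 and Gbp9 differed at 1 base, while Gbp4 differed from Gbp6, Gbp8 and Gbp9 at 4, 6 and 5 bases. Gbp2 and Gbp5 differed at 7 bases, and Irgm1 and Igtp at 7.

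Across whole coding sequences, the 4 chromosome 5 members were 89.6% to 92.5% identical to each other. Gbp4 and Gbp8 were the closest of these pairs, and Gbp4 and Gbp9 the least close. The 4 chromosome 3 members were 61.1% to 78.3% identical to each other, with Gbp3 and Gbp7 the closest pair. Irgm1 and Igtp were 68.0% identical. These similarities bear on how reads were divided between the genes. Of the distinct 100-base stretches of their coding transcripts, Gbp2, Gbp5 and Irgm1 shared none with another gene. Gbp3 shared 0.708% of them, Gbp9 2.01%, Gbp4 2.62% and Gbp8 3.81%. Igtp shared 5.16%, all with its neighbor Irgm2. Gbp7 shared 10.0%, of which most lay in the pseudogene Gm43802 within its last part. Gbp6 stood apart with 82.9% shared with Gm43302, a coding gene that it overlaps and that has no row in the table of counts, and 44.2% shared with Gbp10. The value of Gbp6 is therefore uncertain, since its reads could have been divided with those genes.

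The promoter sequences of RefSeq (GRCm38.p6), which run from 250 bases before to 50 bases after a transcription start, held 6 of the 10 members, namely Gbp2, Gbp3, Gbp5, Gbp7, Irgm1 and Igtp. Gbp4, Gbp6, Gbp8 and Gbp9 had no entry. The interferon-stimulated response element core was searched as GAAA, any 2 bases and GAAA, and the gamma-activated site as TTC, any 3 bases and GAA, on both strands. All 6 windows held the response element core, against 3.44% of the 32851 promoter windows of the table. Gbp5, Gbp7 and Igtp also held the gamma-activated site, which occurred in 8.30% of all windows, and 0.454% of all windows held both. The stretches that hold the matches are shown, except the longest, that of Gbp5, because these genes are known as interferon targets. They run 5′ to 3′ on the strand of the gene, with the matched bases in capitals.
Gbp2: cttttagTTTCACTTTCactgtct
Gbp3: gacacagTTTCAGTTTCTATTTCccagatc
Gbp7: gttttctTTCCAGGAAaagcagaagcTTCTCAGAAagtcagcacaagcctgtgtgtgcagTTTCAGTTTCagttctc
Irgm1: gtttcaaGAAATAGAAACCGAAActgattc
Igtp: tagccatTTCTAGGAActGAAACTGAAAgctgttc
The Gbp2 stretch is chr3:142620597-142620620 (plus strand), that of Gbp3 is chr3:142559992-142560021 (plus strand) and that of Gbp7 is chr3:142530223-142530299 (plus strand). That of Irgm1 is chr11:48871428-48871457 (minus strand) and that of Igtp is chr11:58199504-58199538 (plus strand). In Gbp3 and Irgm1 the capitals hold overlapping matches of the response element core. Of the Irgm1 stretch all 30 bases, and of the Gbp2 stretch 19 of 24 bases, lie in an annotated exon in GENCODE vM21. A match describes letters only and not a bound site.

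Total counts ranged from 19032620 to 23159815 per library, so that a count of 3 corresponded to 0.133 to 0.156 CPM (counts in a library scaled to 1000000 counts, after TMM, a correction for library composition). WT replicate 2 stood apart from the other libraries. It had counts for 11513 genes, against 14442 to 14737 in the other 5, and the comparisons of the groups are therefore given with and without it. The targeted gene Xrcc6 was at 20.9, 63.1 and 23.8 CPM in WT replicates 1 to 3 and at 5.24, 3.51 and 4.18 CPM in cKO replicates 1 to 3, with all cKO libraries below all WT libraries. The Treg markers (8 of 8 with counts) summed to 6066 to 8608 CPM in WT and 5964 to 6623 CPM in cKO libraries. The macrophage and dendritic cell markers (12 of 12 with counts) summed to 201 to 734 CPM in WT and 245 to 1104 CPM in cKO libraries. The CD8 T and NK cell markers summed to 6.20 to 22.6 CPM in WT and 21.9 to 23.9 CPM in cKO libraries, and Ncr1 was not among the genes with counts. Neutrophil markers summed to 10.1 to 20.5 CPM in WT and 15.5 to 19.4 CPM in cKO libraries. Of these 8 genes, 3 were higher in cKO at an unadjusted p under 0.05 in edgeR, against 0.94% of all genes. All cKO libraries lay above all WT libraries for 3 of the 8, against 5.01% of all genes. Those 3 were low, with 1.91 CPM their highest value in any library. B and plasma cell markers summed to 15.0 to 65.0 CPM in WT and 12.5 to 52.1 CPM in cKO libraries. Of these 6 genes, 1 was higher in cKO at an unadjusted p under 0.05 in edgeR, against 0.94% of all genes. DESeq2 called 0 of them higher and 1 lower, against 2.01% of all genes in either direction. Without WT replicate 2, edgeR and DESeq2 called 0 of them. Lung epithelium markers summed to 38.0 to 103 CPM in WT and 39.6 to 69.0 CPM in cKO libraries, and endothelial and stromal markers to 61.6 to 86.4 and 70.6 to 97.0 CPM, with Pdgfra not among the genes with counts. Macrophages and dendritic cells also express GBPs and IRGs, and the part of any of these cells in the values below was not tested.

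The comparison of cKO with WT asked whether tumor-infiltrating Tregs without Ku70 differed in the expression of the 2 GTPase families. None of the 10 members passed the test, and their summed level was nearly the same in both genotypes. The counts of all 10 added up to 1208, 1179 and 1203 CPM in WT replicates 1 to 3 and to 1241, 1310 and 1048 CPM in cKO replicates 1 to 3. The means were 1197 ± 15.9 CPM (SD, n = 3) in WT and 1200 ± 136 CPM (SD, n = 3) in cKO, a ratio of 1.003. The cKO libraries lay above and below the WT libraries. By edgeR's quasi-likelihood test over the 15315 genes with at least 1 count, 0 of the 10 members passed an unadjusted p of 0.05, against 1.81% of all genes tested, and the smallest adjusted p of a member was 0.984. The unadjusted values ran from 0.071 for Gbp8 to 0.917 for Igtp. At an adjusted p of 0.05 edgeR called 0 of 10 members and 0% of all genes. The targeted gene Xrcc6 also missed this threshold with all libraries, at a log2 fold change of -3.06 and an adjusted p of 0.984 in edgeR. Missing it therefore does not show that a gene was unchanged. Without WT replicate 2 Xrcc6 passed, with an adjusted p of 0.0196 in edgeR. In that fit 0 of 10 members passed the unadjusted threshold, against 3.01% of all genes, and 0 of 10 the adjusted threshold, against 0.00653%. DESeq2 also called 0 of 10 members at an unadjusted p of 0.05, against 2.01% of all genes, and 0 of 10 without WT replicate 2, against 2.42%. At an adjusted p of 0.05 it called 0 of 10 members in both fits, against 0.0131% and 0.0196% of all genes. In bulk RNA, fewer cells that express a gene and less RNA of it per cell cannot be told apart.

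**Figure D1:**
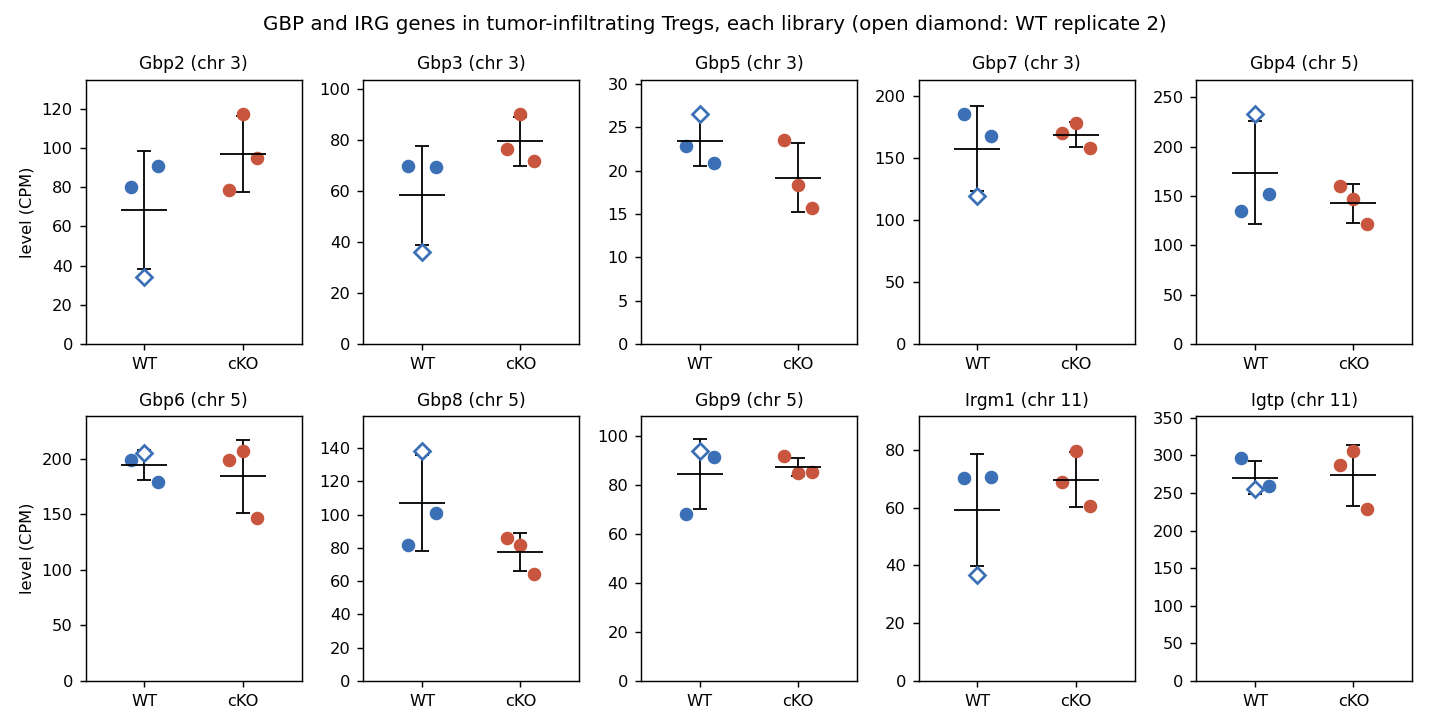
Level of each of the 10 members in each library, in CPM (vertical axes, each starting at 0), for the WT and the cKO group. Points are libraries, the open diamond is WT replicate 2, the long bar is the mean and the whiskers are 1 SD (n = 3). WT replicate 2 is the lowest library for Gbp2, Gbp3, Gbp7 and Irgm1 and the highest for Gbp4, Gbp5, Gbp8 and Gbp9.

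The chromosome 3 cluster holds Gbp5, Gbp7, Gbp3 and Gbp2 in this order on the plus strand, with positions here and below from GENCODE vM21 (GRCm38). Gbp2 (chr3:142620602-142638008) carries a lipid anchor and is required with other GBPs of this cluster for resistance to Toxoplasma. It was measured at 80.0, 34.3 and 90.8 CPM in WT replicates 1 to 3 and at 78.7, 117 and 94.9 CPM in cKO replicates 1 to 3. WT replicate 2 was far below the other libraries, and the groups overlapped through cKO replicate 1. In edgeR's fit the log2 fold change of cKO against WT was 0.50 (SE 0.35, 95% interval -0.31 to 1.32), with an exact permutation p of 0.3, and became 0.18 (interval -0.24 to 0.605) without WT replicate 2.

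Gbp3 (chr3:142560026-142573209) was at 69.9, 36.0 and 69.3 CPM in WT replicates 1 to 3 and at 76.4, 90.1 and 71.8 CPM in cKO replicates 1 to 3. All cKO libraries lay above all WT libraries, also without WT replicate 2, and Gbp3 was the only member whose groups did not overlap. All cKO libraries above all WT libraries occurred in 5.01% of all genes, and in 8.48% without WT replicate 2, so that 1 of 10 members was near the background. With all libraries, WT replicate 1 and cKO replicate 3, the nearest libraries of the groups, were closer to each other than the ranges of the groups are wide. Without WT replicate 2 the WT range, 69.3 to 69.9 CPM, was narrower than this gap, and the cKO range was still wider. The fitted difference was 0.44 on the log2 scale (SE 0.26, 95% interval -0.17 to 1.06) and 0.19 (interval -0.14 to 0.52) without WT replicate 2. Its p of 0.1 in an exact permutation test, two-sided, is the smallest that 3 against 3 libraries allow.

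Gbp7 (chr3:142530342-142550149) was at 185, 119 and 168 CPM in WT replicates 1 to 3 and at 170, 178 and 158 CPM in cKO replicates 1 to 3. Apart from the low WT replicate 2, the libraries of the groups were interleaved. A log2 fold change of 0.10 (SE 0.19, 95% interval -0.33 to 0.54, exact permutation p = 0.8) turned to -0.06 (interval -0.38 to 0.25) without that library. Gbp5 (chr3:142493978-142522344), which promotes assembly of the NLRP3 inflammasome, had the lowest level per length of the members. With all libraries the direction of Gbp5 was opposite to that of its neighbors. Without WT replicate 2 Gbp7 was also negative, while Gbp2 and Gbp3 stayed positive. The intervals of all these genes included 0. Gbp5 stood at 22.9, 26.5 and 20.8 CPM in WT replicates 1 to 3 and at 23.5, 18.3 and 15.7 CPM in cKO replicates 1 to 3. Here WT replicate 2 was the highest library, and cKO replicate 1 lay within the WT range. The fitted difference of -0.29 (log2, SE 0.23, 95% interval -0.84 to 0.26, exact permutation p = 0.3) was -0.19 (interval -0.61 to 0.22) without WT replicate 2.

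The chromosome 5 members lie on the minus strand, and the annotated spans of Gbp4 (chr5:105115767-105139586), Gbp8 (chr5:105014150-105139540) and Gbp9 (chr5:105077630-105139539) overlap each other. Their whole coding sequences were alike, at 92.5% identity for Gbp4 and Gbp8, 90.3% for Gbp8 and Gbp9 and 89.6% for Gbp4 and Gbp9. Few of the stretches compared above were the same in these genes without any mismatch, however. Of its distinct stretches compared above, Gbp4 shared 0.738% with Gbp8 and 0.922% with Gbp9. Gbp8 shared 1.53% with Gbp4, and Gbp9 shared 1.05% with Gbp4 and 0.957% with Gbp8. The division of reads among these genes was not tested. Gbp4 was at 135, 233 and 152 CPM in WT replicates 1 to 3 and at 160, 147 and 121 CPM in cKO replicates 1 to 3. WT replicate 2 was the highest library, and the remaining libraries of both groups overlapped. The log2 fold change of -0.28 (SE 0.23, 95% interval -0.82 to 0.26, exact permutation p = 0.5) shrank to -0.01 (interval -0.365 to 0.34) without WT replicate 2.

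Gbp8 gave the smallest edgeR p of the members. The gene stood at 81.6, 138 and 101 CPM in WT replicates 1 to 3 and at 85.8, 81.9 and 64.6 CPM in cKO replicates 1 to 3. WT replicate 2 was again the highest library, and WT replicate 1 lay below cKO replicates 1 and 2. On the log2 scale the fitted difference was -0.47 (SE 0.22, 95% interval -0.98 to 0.05, exact permutation p = 0.3), and it was -0.24 (interval -0.61 to 0.13) without WT replicate 2. Without WT replicate 1 it was -0.63 (SE 0.20) with an unadjusted edgeR p of 0.0194, the single case in which a member passed 0.05 when a library was left out, and the adjusted p was 0.677.

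Gbp9 was at 68.1, 94.1 and 91.7 CPM in WT replicates 1 to 3 and at 91.8, 85.0 and 85.5 CPM in cKO replicates 1 to 3. The cKO libraries lay within the WT range, which was set by a low WT replicate 1. With a log2 fold change of 0.05 (SE 0.16, 95% interval -0.33 to 0.42, exact permutation p = 0.9), Gbp9 reached 0.13 (interval -0.22 to 0.48) without WT replicate 2. Gbp6 (chr5:105270702-105293698) was at 199, 205 and 179 CPM in WT replicates 1 to 3 and at 199, 207 and 147 CPM in cKO replicates 1 to 3. The groups overlapped, with cKO replicate 3 the lowest. Its log2 fold change was -0.08 (SE 0.17, 95% interval -0.48 to 0.33, exact permutation p = 0.9) and -0.04 (interval -0.44 to 0.36) without WT replicate 2. Summed with Gbp10, with which it shares much of its sequence, Gbp6 came to 231 ± 34.7 CPM (SD, n = 3) in WT and 205 ± 36.9 CPM (SD, n = 3) in cKO, a ratio of cKO to WT of 0.891, or 0.972 without WT replicate 2.

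Both IRG members lie on chromosome 11. Irgm1 (chr11:48861968-48871683, minus strand) is a regulatory IRG that acts in autophagy and at lysosomes and mitochondria. Irgm1 stood at 70.3, 36.7 and 70.7 CPM in WT replicates 1 to 3 and at 68.9, 79.7 and 60.6 CPM in cKO replicates 1 to 3. WT replicate 2 was far below all others, which overlapped between the groups. A fitted log2 difference of 0.24 (SE 0.26, 95% interval -0.38 to 0.86, exact permutation p = 0.7) turned to -0.02 (interval -0.35 to 0.32) without WT replicate 2.

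Igtp (chr11:58199556-58207591, plus strand) overlaps Irgm2 on the same strand. Igtp stood at 296, 256 and 259 CPM in WT replicates 1 to 3 and at 287, 306 and 228 CPM in cKO replicates 1 to 3. The cKO libraries lay on both sides of the WT libraries, and WT replicate 2 was within the range of the others. Its log2 fold change of 0.02 (SE 0.17, 95% interval -0.37 to 0.41, exact permutation p = 0.9) was -0.02 (interval -0.41 to 0.37) without WT replicate 2.

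**Figure D2:**
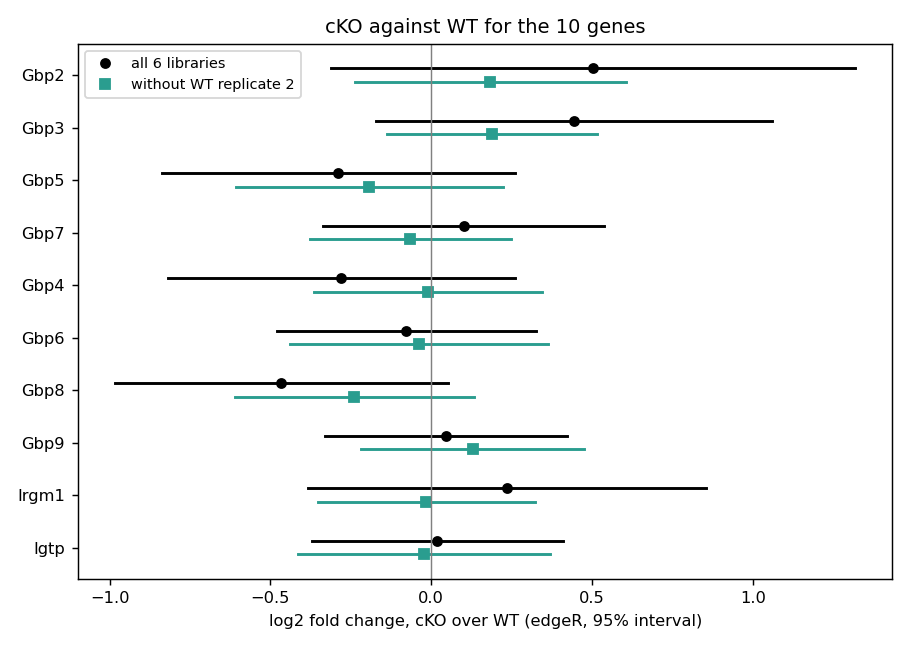
Log2 fold change of cKO against WT for the 10 members (horizontal axis), with 95% intervals from edgeR's quasi-likelihood fit, with all 6 libraries and without WT replicate 2. Every interval includes 0 in both fits. Without WT replicate 2 the intervals of Gbp6 and Igtp are about as wide as before, that of Igtp very slightly wider, and those of the other members are narrower.

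Among the members, 6 had a positive and 4 a negative log2 fold change with all libraries, and the median was 0.03 against 0.04 over all genes tested. Without WT replicate 2, 3 were positive and 7 negative, with a median of -0.02 against -0.01 over all genes. The intervals of the 10 members without WT replicate 2 ran from -0.61 (Gbp8) to 0.605 (Gbp2), so that a change of 1 on the log2 scale lay outside all of them. With all libraries, the intervals of Gbp2 and Gbp3 passed 1, reaching 1.32 and 1.06, and that of Gbp8 reached -0.98.

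The levels of the members differed from each other far more than between the groups. Per kb of exon, Igtp had the highest level with a mean of 135 CPM per kb over the 6 libraries, and it was above all other members in every library. It was followed by Gbp2 at 32.8, Gbp6 at 31.8, Gbp7 at 29.0 and Gbp8 at 26.8 CPM per kb. Gbp4 and Gbp3 were each at 21.1, Gbp9 at 16.6 and Irgm1 at 11.1 CPM per kb, and Gbp5 was last at 3.21 CPM per kb. Neighbors in this order had overlapping ranges over the libraries except Igtp and Gbp2 at the top and Irgm1 and Gbp5 at the bottom. The order in between depended on the length used. When the longest protein-coding transcript replaced the union of exons, an alternative chosen after seeing the data, Gbp6 rose to 72.7 and Irgm1 to 28.5 CPM per kb, while Igtp stayed first and Gbp5 last.

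**Figure D3:**
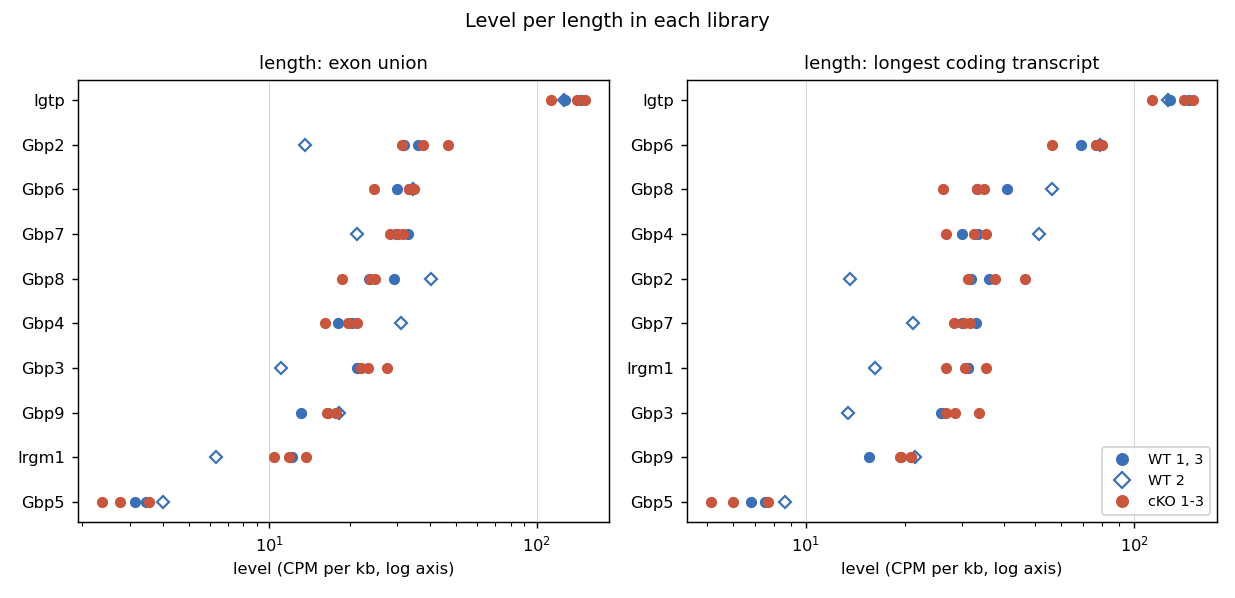
Level of the 10 members (CPM per kb, log axis) in each of the 6 libraries. The left panel is per kb of exon and the right panel per kb of the longest protein-coding transcript, each in descending order of the mean. Igtp lies above and Gbp5 below all other members in every library in both panels. Per kb of exon, the ranges of the other 8 overlap from neighbor to neighbor. Per kb of the longest transcript, Gbp6 (lowest 56.4 CPM per kb) lies just above the range of Gbp8 (highest 56.3 CPM per kb).

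WT replicate 2 lay at the edge of the range for most members, and the sums of the clusters moved in opposite directions in it, although Gbp5 on chromosome 3 was high there. In that library the chromosome 3 members summed to 216 CPM, against 341 to 403 CPM in the other 5 libraries. The chromosome 5 members summed to 671 CPM in WT replicate 2, against 418 to 537 CPM in the other 5. Irgm1 and Igtp together were at 292 CPM in WT replicate 2 and at 289 to 385 CPM in the others. The ratio of the chromosome 5 to the chromosome 3 sum was 3.11 in WT replicate 2 and 1.23 to 1.54 in the other libraries, while the sum over all members hardly moved. By group, the chromosome 3 sum was 307 ± 79.5 CPM (SD, n = 3) in WT and 364 ± 34.2 CPM (SD, n = 3) in cKO. The chromosome 5 sum was 560 ± 98.3 CPM (SD, n = 3) in WT and 492 ± 64.4 CPM (SD, n = 3) in cKO. Without WT replicate 2 the ratio of cKO to WT was 1.03 for the chromosome 3 sum and 0.976 for the chromosome 5 sum.

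**Figure D4:**
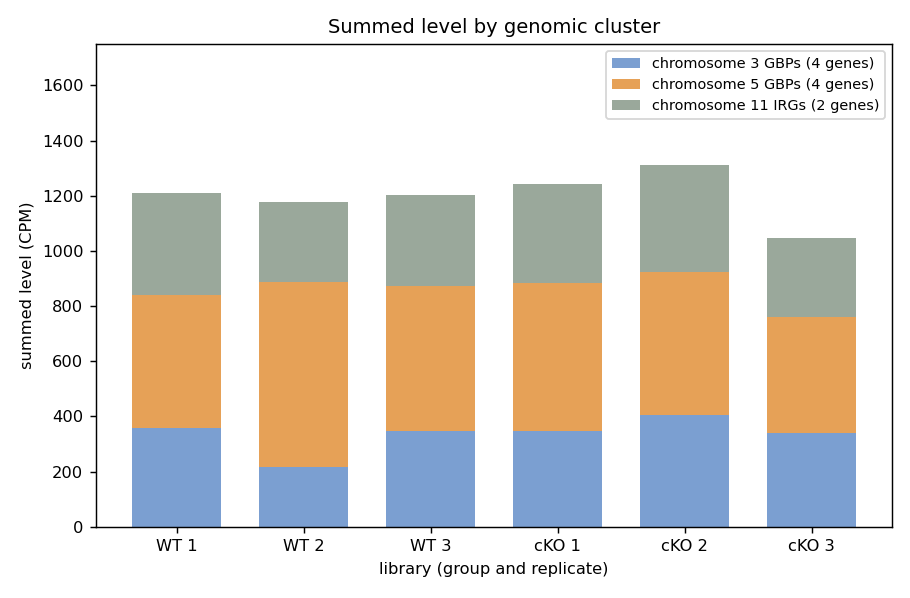
Summed level (CPM, from 0) of the chromosome 3 GBP members, the chromosome 5 GBP members and the chromosome 11 IRG members in each library. WT replicate 2 has the lowest chromosome 3 sum (216 CPM) and the highest chromosome 5 sum (671 CPM), and the other 5 libraries overlap between the groups.

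Relative to the mean of the other 5 libraries, WT replicate 2 was at 0.371 for Gbp2, 0.477 for Gbp3, 0.524 for Irgm1 and 0.693 for Gbp7. It was at 1.67 for Gbp8, 1.62 for Gbp4, 1.31 for Gbp5, 1.11 for Gbp9, 1.10 for Gbp6 and 0.928 for Igtp. It was the extreme library for 8 of the 10 members (80%), against 71.7% of all genes and 76.6% of the 6019 genes whose mean level lay within the range of the members. It departed more than 1.5-fold from the mean of the others for 5 of 10 members, against 63.0% of all genes and 38.0% of the genes of like level. Over the other 5 libraries the members were steady, with a median coefficient of variation of 11.5% against 17.2% over all genes and 10.8% over genes of like level. The macrophage and dendritic cell markers summed to 201, 707 and 734 CPM in WT replicates 1 to 3 and to 245, 582 and 1104 CPM in cKO replicates 1 to 3. The members summed to 1208, 1179 and 1203 CPM in WT replicates 1 to 3 and to 1241, 1310 and 1048 CPM in cKO replicates 1 to 3. A link between these sums was not tested.

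**Figure D5:**
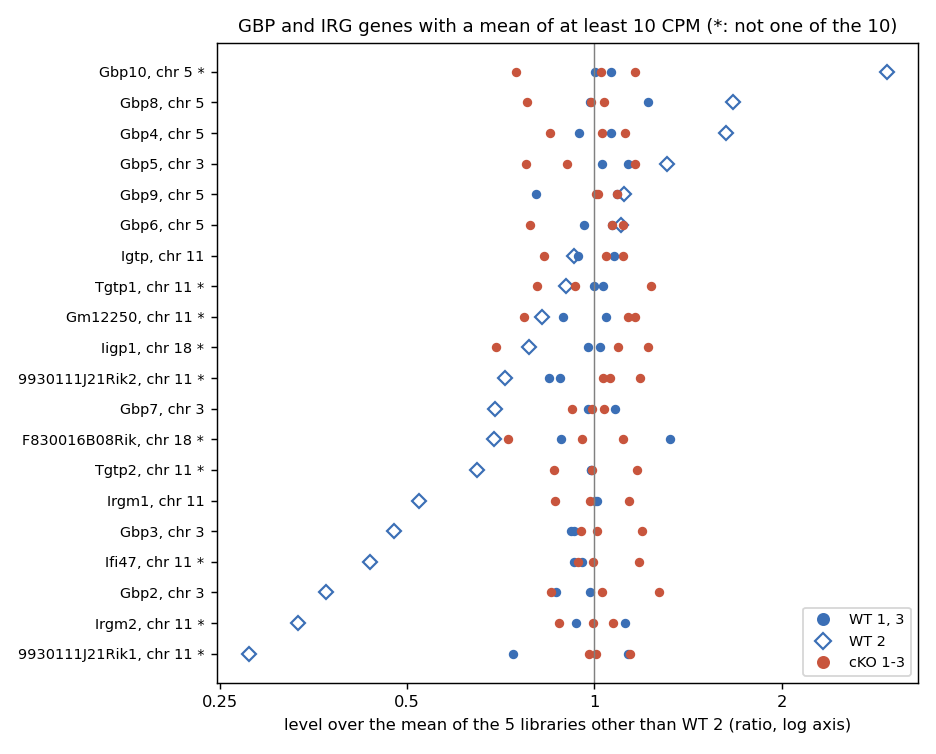
Level in each library over the mean of the 5 libraries other than WT replicate 2 (ratio, log axis) for the 20 GBP and IRG genes with a mean of at least 10 CPM, ordered by the ratio of WT replicate 2 (open diamond). Genes with an asterisk are not among the 10 members. WT replicate 2 ran from below to above all other libraries across the families. Among the members it ran from 0.371 for Gbp2 to 1.67 for Gbp8, and among all genes plotted from 0.278 for 9930111J21Rik1 (named after its value was seen) to 2.95 for Gbp10.

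Of 18 other GBP and IRG genes, 17 had counts. With all libraries 14 of them had a positive and 3 a negative log2 fold change, with a median of 0.22 and none at an unadjusted p under 0.05. Without WT replicate 2 the signs were 10 and 7 and the median was 0.03. The effector Iigp1, which loads onto parasite vacuoles, was at 41.3, 31.7 and 39.4 CPM in WT replicates 1 to 3 and at 44.0, 49.2 and 28.1 CPM in cKO replicates 1 to 3. The groups overlapped, with a log2 fold change of 0.11 (SE 0.24) that was 0.00 (SE 0.22) without WT replicate 2. The third regulatory IRG, Irgm2, was at 49.0, 14.6 and 40.8 CPM in WT replicates 1 to 3 and at 47.0, 43.6 and 38.4 CPM in cKO replicates 1 to 3. Like Irgm1 it was lowest in WT replicate 2, and its log2 fold change of 0.30 (SE 0.40) turned to -0.07 (SE 0.15) without that library. Gbp10, 98.4% identical to Gbp6 in coding sequence, was at 21.8, 64.1 and 23.1 CPM in WT replicates 1 to 3 and at 25.2, 22.2 and 16.3 CPM in cKO replicates 1 to 3. It was high in WT replicate 2 alone, and the log2 fold change of -0.77 (SE 0.44) shrank to -0.08 (SE 0.19) without it.

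Gm5431, an IRG gene close to Irgm1 on chromosome 11, was the single gene of this list past an unadjusted p of 0.05 without WT replicate 2. It was low, at 2.06, 0.752 and 2.08 CPM in WT replicates 1 to 3 and at 3.90, 3.27 and 3.29 CPM in cKO replicates 1 to 3. All cKO libraries lay above all WT libraries, as did those of 8.48% of all genes without WT replicate 2. Its log2 fold change was 0.75 (SE 0.31, adjusted p = 0.998 in edgeR) without WT replicate 2 and 1.09 (SE 0.64) with it. An unadjusted p under 0.05 with a higher level in cKO was reached by 1.51% of all genes without WT replicate 2.

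The receptors and signalling genes upstream of the families gave 8 positive and 11 negative log2 fold changes among 19 genes (median -0.04). Without WT replicate 2 these reversed to 11 positive and 8 negative (median 0.01). None passed an unadjusted p of 0.05 with or without WT replicate 2. With all libraries the groups did not overlap for 2 genes, Jak2 and Irf2, named after their values were seen. All cKO libraries lay below all WT libraries for Jak2, as for 3.23% of all genes, and above them for Irf2, as for 5.01%. The log2 fold change was -0.56 (SE 0.27) for Jak2 and 0.15 (SE 0.13) for Irf2. Without WT replicate 2 it was -0.19 (SE 0.15) and 0.19 (SE 0.13). Ifngr1, the ligand-binding chain of the interferon-gamma receptor, was at 1179, 1090 and 959 CPM in WT replicates 1 to 3 and at 1090, 1263 and 1117 CPM in cKO replicates 1 to 3 (log2 fold change 0.10, SE 0.19, and 0.11 without WT replicate 2). The signalling chain Ifngr2 was at 28.6, 121 and 81.1 CPM in WT replicates 1 to 3 and at 55.9, 62.6 and 85.0 CPM in cKO replicates 1 to 3 (log2 fold change -0.18, SE 0.46). The groups overlapped for both chains. WT replicate 2 was the highest library for Ifngr2, and without it the log2 fold change turned to 0.31 (SE 0.37). Irf1 was at 353, 279 and 357 CPM in WT replicates 1 to 3 and at 371, 373 and 293 CPM in cKO replicates 1 to 3 (log2 fold change 0.07, SE 0.18, turning to -0.04 without WT replicate 2).

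Ifng, which encodes the ligand, was chosen for mention after its values were seen. Its level was 128, 94.7 and 79.6 CPM in WT replicates 1 to 3 and 86.8, 78.1 and 52.1 CPM in cKO replicates 1 to 3. The groups overlapped, and the log2 fold change was -0.48 (SE 0.25) with and -0.52 (SE 0.25) without WT replicate 2.

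Of 20 interferon-gamma target genes outside the families, 19 had counts, with 11 positive and 8 negative log2 fold changes and a median of 0.03. Of these, 0 were higher and 2 were lower in cKO at an unadjusted p under 0.05, against 0.868% of all genes that were lower. The chemokine gene Cxcl10 was at 121, 163 and 110 CPM in WT replicates 1 to 3 and at 96.7, 105 and 75.1 CPM in cKO replicates 1 to 3. All cKO libraries lay below all WT libraries, as did those of 3.23% of all genes. Its log2 fold change was -0.51 (SE 0.20, adjusted p = 0.984 in edgeR) and became -0.33 (SE 0.16) without WT replicate 2. Nlrc5, a transactivator of MHC class I genes, was at 179, 296 and 220 CPM in WT replicates 1 to 3 and at 191, 138 and 142 CPM in cKO replicates 1 to 3. cKO replicate 1 lay within the WT range, and the log2 fold change was -0.56 (SE 0.23, adjusted p = 0.984 in edgeR) with and -0.35 (SE 0.18) without WT replicate 2. WT replicate 2 was the highest library for both genes. Casp1, the inflammasome protease, had a log2 fold change of -0.49 (SE 0.22), and without WT replicate 2 it was -0.22 (SE 0.13). Without that library none of the 19 passed, with 6 positive and 13 negative values and a median of -0.10.

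GBPs and IRGs reach their target membranes with the help of the ATG proteins that conjugate LC3 and GABARAP, and several GBPs act before the inflammasomes. All 20 genes listed for these partners had counts, with 8 positive and 12 negative log2 fold changes, a median of -0.02 and none at an unadjusted p under 0.05. Without WT replicate 2 none passed either, and the balance reversed to 11 positive and 9 negative with a median of 0.01. The smallest p values belonged to Atg16l1, a subunit of the LC3 conjugation complex, with a log2 fold change of -0.75 (SE 0.42) that became -0.03 without WT replicate 2. Next were Map1lc3a, an LC3 gene, at -0.62 (SE 0.40) and 0.03 without WT replicate 2, and the autophagy receptor gene Sqstm1 at 0.24 (SE 0.17) and 0.18 without WT replicate 2.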

How the data were processed

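The authors deposited RSEM's estimated counts, unnormalized and listed by gene symbol, for the 6 libraries (SMARTER kit, total RNA, TRIzol). The submitters' processing notes name Bowtie2 (version 2.3.4.3), RSEM (version 1.3.1) and GRCm38. The annotation and strand setting are not given in the sources used here. Of the values, 21.6% were not whole, and all were rounded before testing. GENCODE vM21, which held 14783 of the 15319 symbols, gave positions and exon lengths.

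The members and lists were chosen with earlier results of these data known. Groups were compared with the quasi-likelihood test of edgeR (version 4.0.16, R 4.3.3) on all 6 libraries, scaled by TMM. Genes without any count were dropped, and p-values were adjusted by Benjamini-Hochberg for the 15315 left. The F statistic of each gene gave its standard error. Alternatives were DESeq2 (version 1.42.0), limma (version 3.58.1) with quality weights, other scalings and a filter, a replicate block and leaving out each library. Genes named beside the members were those of the other GBP and IRG and the signalling lists with an unadjusted p under 0.05 in either fit, Irf1, Ifngr1, Ifngr2, Irgm2, Iigp1 and Gbp10, up to 3 genes of smallest p in each remaining list, and Xrcc6. Genes marked above as named or chosen after their values were seen came in addition to these. Identity of coding sequences stood in for a comparison of proteins. Total counts cover counting error only. Reads of a gene and of an antisense or overlapping partner cannot be told apart where strand was not used. A gene that the rule also named is not reported here.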

Additional observations from a re-analysis of the deposited data

How the results depend on the processing

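No member passed an adjusted p of 0.05 under any of the alternatives run, and none an unadjusted p of 0.05 except Gbp8 without WT replicate 1. The directions of Gbp2, Gbp3, Gbp4, Gbp5 and Gbp8 held under all of them. Those of the 5 members nearest to 0 did not, and the cause was not tested. With library size as the only scaling, the log2 fold change was -0.022 for Gbp9 and -0.041 for Igtp. With limma's quality weights it was -0.035 for Gbp7, -0.011 for Irgm1 and -0.038 for Igtp, and with DESeq2 without WT replicate 2 it was -0.067 for Gbp7, -0.019 for Irgm1 and -0.024 for Igtp. Leaving out each library in turn gave -0.17 to 0.063 for Gbp6, -0.065 to 0.24 for Gbp7, -0.087 to 0.13 for Gbp9, -0.016 to 0.39 for Irgm1 and -0.069 to 0.13 for Igtp.

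Over all genes, 144 were higher and 133 lower at an unadjusted p under 0.05 and 0 passed an adjusted p of 0.05 in edgeR. The counts were 95 and 212 with DESeq2 (2 adjusted), 197 and 173 with DESeq2 without WT replicate 2 (3 adjusted), 262 and 281 with limma, 121 and 147 with library size only, and 39 and 101 with the filter. Leaving out 1 library gave 45 to 287 higher, 20 to 601 lower and 0 to 1 adjusted, and 0 to 1 member. Of the 4 other lists, 2 genes passed, 1 with library size only, with limma or with DESeq2 without WT replicate 2, and 0 to 6 with 1 library left out. With the replicate number as a replicate block, 39 genes were higher and 46 lower, and no call on a member changed. The deviations of libraries of the same number had correlations of 0.114, -0.094 and 0.211, against -0.280 to 0.161 for libraries of different numbers. These ranges overlapped, although the largest value was that of a same-number pair. The numbers were not used as pairs.

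Per kb of the longest protein-coding transcript, the level was 72.7 for Gbp6, 37.5 for Gbp8, 34.9 for Gbp4, 19.6 for Gbp9, 28.5 for Irgm1 and 6.97 CPM per kb for Gbp5. The 95% intervals give the range of changes that 3 libraries a group leave possible.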
